A study of Rattus norvegicus with 8 samples.

Results

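Chemokines and their receptors were followed in the dorsal spinal cord of nerve-injured rats given a histone deacetylase inhibitor (HDACI) or its vehicle. The set holds every gene whose probe set carries a single symbol made of Ccl, Cxcl, Ccr or Cxcr and a number, or Cx3cl1, Cx3cr1, Xcl1 or Xcr1. It came to 50 genes of the 14506 measured with a single symbol, each read by 1 probe set (50 of 29214). Of these, 33 are ligands (19 CC, 12 CXC, 1 CX3C and 1 XC) and 17 are receptors (9 CC, 6 CXC, 1 CX3C and 1 XC). The symbols alone chose them, although the set was defined with earlier results of these data known.

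Tissue was the dorsal part of the lumbar cord on the injured side, taken on day 14 after transection of the L5 spinal nerve in adult male Wistar rats. The HDACI group (4 arrays) received MS-275, an inhibitor of class I histone deacetylases, at 30 nmol per day by an intrathecal osmotic pump. The vehicle group (4 arrays) carried the same pump filled with dimethyl sulfoxide in saline. Both groups had the nerve injury and the pump, and tissue from uninjured rats was not analysed here, so the values compare drug with vehicle and not injury with health. RNA was read on Affymetrix Rat Gene 1.0 ST arrays, and all levels below are log2 signals after RMA, on which a difference of 1 is a doubling. Levels of different probe sets do not rank the amounts of their RNAs, because probes differ in how strongly they bind. In tissue of mixed cells, fewer cells of a type and less RNA per cell cannot be told apart.

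Chemokines are small secreted proteins that guide the movement of leukocytes and glia, and their receptors are G protein-coupled receptors on the cells that respond. After peripheral nerve injury the family is best known in the dorsal horn for exchange between neurons and glia. Examples are neuronal Cx3cl1 acting on microglial Cx3cr1, Ccl2 on Ccr2, and Cxcl13 on Cxcr5. Most chemokine genes are switched on by inflammatory signals through transcription factors such as NF-κB and AP-1, and several by interferons.

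The 8 arrays were alike over all probe sets, with pairwise correlations between 0.993 and 0.997 and medians between 7.95 and 7.98. Markers of dorsal horn neurons (9 genes) averaged 10.22 to 10.55 on the HDACI arrays and 10.36 to 10.44 on the vehicle arrays. HDACI replicate 2 stood apart on several cell type lists. Its mean over 8 markers of leptomeningeal fibroblasts, the cells of the cord's inner coverings, was 9.91, whereas the other HDACI arrays lay from 8.60 to 9.002 and the vehicle arrays from 8.64 to 9.34. Its means over dorsal horn and general neuron markers were the lowest of the 8 arrays. They were 10.22 for dorsal horn neurons (the other HDACI arrays from 10.45 to 10.55) and 11.86 over 5 general neuron genes (the other HDACI arrays from 11.96 to 12.02, the vehicle arrays from 12.004 to 12.15). Over 6 sensory ganglion neuron genes HDACI replicate 4 was lowest (6.997), and HDACI replicate 2 read 7.31. Of the 50 members, 7 changed the sign of their fold change without HDACI replicate 2, and 16 more kept it but were over 1.5 times smaller. The median log2 fold change of the family was then -0.0024, with 25 genes above 0 and 25 below. Such counts are not given here for the other arrays. Array quality weights were low for vehicle replicates 4 (0.594) and 2 (0.670) as well as for HDACI replicate 2 (0.616). The other arrays had weights from 1.07 to 1.61.

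Promoter sequences are shown for the 5 ligands with a RefSeq window that stood furthest above the next array on HDACI replicate 2 (Ccl19, Cxcl10, Ccl7, Cxcl11 and Cxcl16) and for Cxcl12, which had the lowest p among ligands. They were picked after their values had been seen. Each run is the 250 bases before the RefSeq transcription start (assembly GRCr8), 5′ to 3′ on the strand of the gene. Capitals mark matches to NF-κB sites, to the interferon-stimulated response element (GAAA repeated after any 2 bases), to AP-1 sites (TGANTCA) and to TATAAA, searched on both strands. AP-1 letters read the same on both strands, so every AP-1 match counts on each. The Ccl19 window lies at chr5:61761165-61761414 and the Cxcl16 window at chr10:55669951-55670200, both on the minus strand. The Cxcl10 window lies at chr14:15988816-15989065, the Cxcl11 window at chr14:15973478-15973727, the Ccl7 window at chr10:67513845-67514094 and the Cxcl12 window at chr4:152060531-152060780, all on the plus strand.
Ccl19: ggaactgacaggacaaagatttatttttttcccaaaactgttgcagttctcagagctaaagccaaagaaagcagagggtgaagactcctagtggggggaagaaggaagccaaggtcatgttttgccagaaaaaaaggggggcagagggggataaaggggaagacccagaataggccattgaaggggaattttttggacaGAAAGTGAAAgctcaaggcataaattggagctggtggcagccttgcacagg
Cxcl10: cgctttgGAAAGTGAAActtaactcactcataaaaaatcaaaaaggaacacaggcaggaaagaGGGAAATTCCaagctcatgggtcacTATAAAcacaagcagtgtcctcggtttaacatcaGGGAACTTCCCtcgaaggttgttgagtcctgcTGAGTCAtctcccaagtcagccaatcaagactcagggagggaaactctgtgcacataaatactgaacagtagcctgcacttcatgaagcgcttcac
Cxcl11: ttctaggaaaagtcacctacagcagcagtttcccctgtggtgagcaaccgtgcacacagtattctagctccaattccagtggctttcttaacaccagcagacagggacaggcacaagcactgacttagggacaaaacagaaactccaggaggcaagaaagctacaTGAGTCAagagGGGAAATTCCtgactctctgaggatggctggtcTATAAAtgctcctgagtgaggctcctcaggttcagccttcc
Ccl7: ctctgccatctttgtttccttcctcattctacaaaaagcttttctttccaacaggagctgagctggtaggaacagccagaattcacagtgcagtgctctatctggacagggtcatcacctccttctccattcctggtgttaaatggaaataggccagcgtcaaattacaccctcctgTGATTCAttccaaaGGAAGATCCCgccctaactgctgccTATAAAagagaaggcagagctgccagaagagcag
Cxcl16: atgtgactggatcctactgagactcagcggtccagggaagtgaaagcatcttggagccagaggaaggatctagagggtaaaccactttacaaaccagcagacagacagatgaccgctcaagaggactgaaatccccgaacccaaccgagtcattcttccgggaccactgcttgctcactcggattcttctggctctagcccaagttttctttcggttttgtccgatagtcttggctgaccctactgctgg
Cxcl12: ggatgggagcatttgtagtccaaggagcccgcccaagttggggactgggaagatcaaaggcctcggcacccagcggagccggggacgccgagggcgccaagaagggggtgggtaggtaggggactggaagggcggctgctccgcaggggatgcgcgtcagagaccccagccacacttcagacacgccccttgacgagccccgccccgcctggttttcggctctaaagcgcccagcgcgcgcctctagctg

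The Cxcl10 window held NF-κB matches starting 187 and 128 bases before the start, the second of which also matched on the other strand, shifted by 1 base. It held an interferon element 243 bases, an AP-1 match 96 bases and a TATAAA 162 bases before the start. In Cxcl11 an AP-1 match at 85 bases stood next to an NF-κB match at 74 bases, followed by TATAAA at 41 bases. Ccl7 had the same order, with AP-1 at 73, NF-κB at 59 (on the minus strand) and TATAAA at 34 bases. Ccl19 held only an interferon element, at 51 bases, and none of the motifs occurred in the Cxcl16 or Cxcl12 windows. None of the motifs searched occurred in all 5 ligands picked for HDACI replicate 2, and the part of motifs in the levels was not tested. Ccl2, which stood furthest above the next array on that replicate (0.83), had no RefSeq window.

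Over the family, 39 of 50 genes had a window in the RefSeq table. NF-κB matches were found in 9 of them (23.1%), against 6.33% of all 33469 windows. Those 9 were 8 of 27 ligands (Ccl7, Ccl9, Ccl20, Cxcl1, Cxcl2, Cxcl6, Cxcl10 and Cxcl11) and 1 of 12 receptors (Ccr3). AP-1 letters occurred in 7 (17.9%, all windows 6.34%), TATAAA in 11 (28.2%, all windows 12.9%) and the interferon element in 2, Ccl19 and Cxcl10 (5.13%, all windows 3.41%). These are matches of letters, and binding at them was not measured.

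Most of the family read in the lower part of the array signal. The median level over the 50 genes was 6.99, against 8.60 over all genes, and 39 (78.0%) lay under the median of all probe sets (7.95), against 38.5% of all genes. The low end was set at the 25th percentile of all probe sets, 6.40. Under it lay 14 members (28.0%), 7 ligands and 7 receptors, against 17.3% of all genes. Olfactory receptor genes served as a guide to signal without much RNA, since the cord is not known to use most of them. Their median over 1105 genes was 5.22, and 87.2% of them were under 6.40. Their 95th percentile, 6.93, put 23 members (46.0%) under it, 14 ligands and 9 receptors. Those between 6.40 and 6.93 were Ccr1l1, Ccl22, Ccl26, Ccl21, Ccl7, Cxcl11, Cxcr6, Ccl28 and Cxcl9, and their signal may hold little RNA too. The plot of levels by gene shows how many members crowd around these lines.

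**Figure D1:**
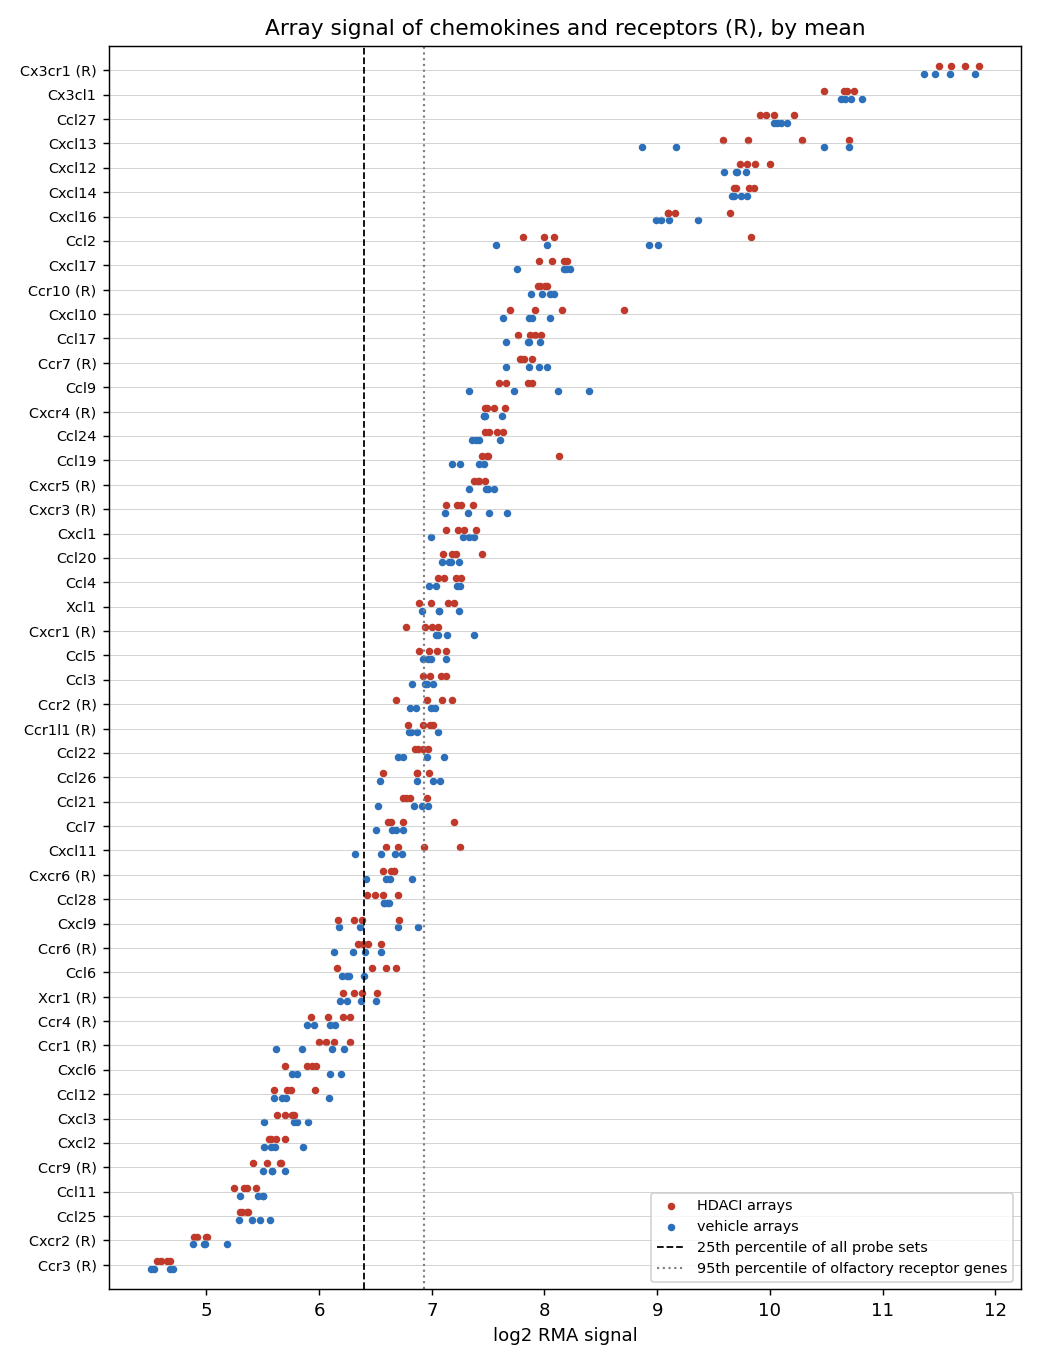
Log2 signal (horizontal axis) of each of the 50 genes on the 4 HDACI and 4 vehicle arrays, ordered by mean level, with lines at the low-end levels. Cx3cr1 was highest (mean 11.62 over 8 arrays), Ccr3 lowest (4.62), and 14 genes lay under 6.40.

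Just above that line was Cxcl9, an interferon-induced ligand of Cxcr3, with 6.17, 6.71, 6.31 and 6.38 on the HDACI arrays, against 6.70, 6.88, 6.18 and 6.37 on the vehicle arrays. Just below it was Ccr6, the receptor of Ccl20, with 6.55, 6.43, 6.39 and 6.35 on the HDACI arrays, against 6.30, 6.14, 6.55 and 6.41 on the vehicle arrays. Both straddled the line from array to array.

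The other members under the line were the receptors Xcr1, Ccr4, Ccr1, Ccr9, Cxcr2 and Ccr3 and the ligands Ccl6, Cxcl6, Ccl12, Cxcl3, Cxcl2, Ccl11 and Ccl25. Cxcl2, Cxcl3 and Cxcl6 are ligands of Cxcr2, the main receptor of neutrophils, and Cxcr2 itself averaged 4.95 with HDACI and 5.01 with vehicle. Ccr3, a receptor of eosinophils, averaged 4.62 with HDACI and 4.61 with vehicle. Its ligand Ccl11 averaged 5.34 with HDACI and 5.44 with vehicle. Only these 2 receptors, Cxcr2 and Ccr3, fell under the 10th percentile of probe sets, 5.09. All 14 lay between -0.10 and 0.20 in log2 fold change, on a part of the scale where RMA understates differences.

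No member passed the test after adjustment. Among the 50 genes, limma called 0 at an adjusted p under 0.05, the lowest adjusted p being 0.640, and it called 0% of all genes too. At the study's threshold, an unadjusted p under 0.01, limma called 0 members higher (all genes 0.607%) and 0 lower (all genes 0.855%). At p under 0.05 limma called 1 member higher, Cxcl12 (all genes 2.79%), and 1 lower, Cxcr1 (all genes 4.96%), so that 4.00% of the members passed in either direction, against 7.75% of all genes. In 0 members did all HDACI arrays lie above all vehicle arrays (all genes 1.42%), and in 0 did all lie below (all genes 3.6%). At p under 0.05 and for groups that did not overlap, the shares of members were no higher than those of all genes.

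The median log2 fold change, HDACI minus vehicle, was 0.02 over the family, with 30 genes above 0 and 20 below, and -0.01 over all genes, with 6106 above 0 and 8400 below. Ligands (20 above, 13 below) and receptors (10 above, 7 below) both had a median of 0.02. The 36 members above the low end had a median of 0.03 and the 14 near it -0.02. Single values ran from -0.20 for Cxcr1 to 0.32 for Ccl19, and 0 genes passed a 1.5-fold difference. For 44 of 50 genes the whole 95% confidence interval stayed within 1.5-fold in either direction. Those 44 include all 14 near the low end, where RMA understates differences. Narrow intervals there do not exclude larger changes in RNA. The exceptions were Ccl2, Cxcl13, Cxcl10, Ccl19, Cxcl11 and Ccl9, whose intervals still admit larger differences.

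**Figure D2:**
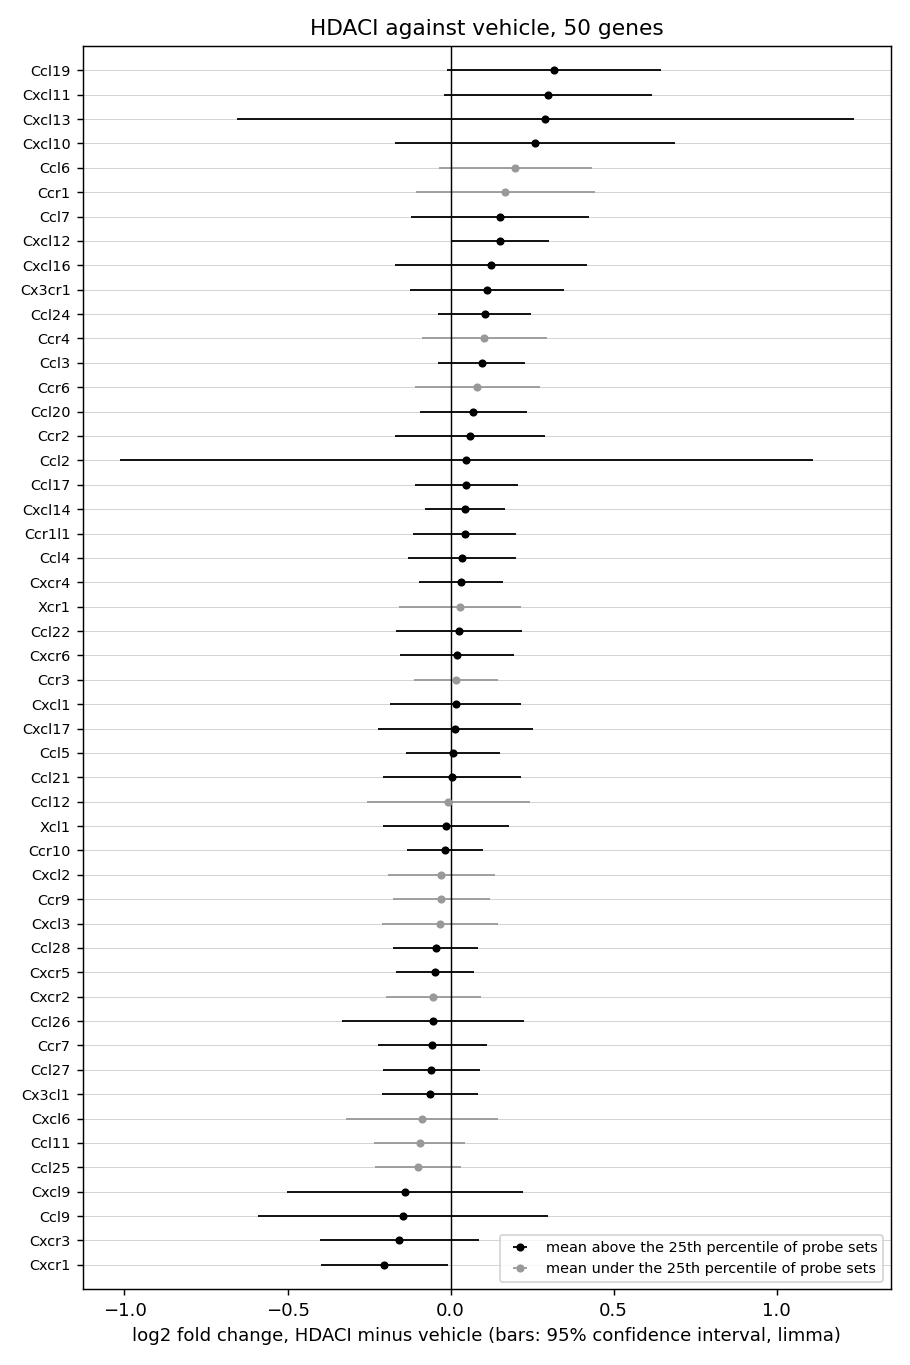
Log2 fold change, HDACI minus vehicle (horizontal axis), of the 50 genes with 95% confidence intervals from limma, in order of size. The points run from -0.20 (Cxcr1) to 0.32 (Ccl19), and the interval of Ccl2 is the widest, -1.01 to 1.11.

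Cx3cr1, the fractalkine receptor that marks microglia, gave the highest signal of the family, above 96.1% of genes. It read 11.50, 11.86, 11.61 and 11.73 on the HDACI arrays, against 11.82, 11.60, 11.37 and 11.46 on the vehicle arrays. The groups overlapped throughout, with HDACI replicate 2 and vehicle replicate 1 the highest arrays. The log2 fold change was 0.11 (SE 0.11, 95% confidence interval -0.13 to 0.35; limma p = 0.319, adjusted p = 0.837, exact permutation p = 0.371), and 0.05 without HDACI replicate 2. Its ligand Cx3cl1, a membrane-bound chemokine of neurons, read 10.69, 10.48, 10.66 and 10.75 on the HDACI arrays, against 10.63, 10.66, 10.72 and 10.81 on the vehicle arrays. Only vehicle replicate 4 exceeded every HDACI array, and the log2 fold change was -0.06 (SE 0.07, 95% confidence interval -0.21 to 0.08; limma p = 0.357, adjusted p = 0.855, exact permutation p = 0.429), and -0.01 without HDACI replicate 2. Neither gene of this neuron to microglia pair differed by more than the spread between arrays.

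Cxcl12, which holds Cxcr4-bearing cells in place and is made by meningeal, vascular and glial cells, had the lowest p of any ligand. It read 9.74, 9.87, 9.80 and 10.005 on the HDACI arrays, against 9.60, 9.79, 9.70 and 9.71 on the vehicle arrays. HDACI replicates 2, 3 and 4 lay above every vehicle array and HDACI replicate 1 lay inside the vehicle range. Mean levels were 9.85 ± 0.12 with HDACI and 9.70 ± 0.08 with vehicle (SD, n = 4 each). The log2 fold change was 0.15 (SE 0.07, 95% confidence interval 0.0044 to 0.30; limma p = 0.0448, adjusted p = 0.640, exact permutation p = 0.0571, where 0.0286 is the smallest p that 4 against 4 arrays can give). Leaving out HDACI replicate 2 or 4, or vehicle replicate 1, 3 or 4, took its p above 0.05, as did a fit without moderation and centring each array on its median. Its receptor Cxcr4 read 7.49, 7.65, 7.47 and 7.55 on the HDACI arrays, against 7.63, 7.48, 7.47 and 7.46 on the vehicle arrays. These ranges were nearly the same, with a log2 fold change of 0.03 (SE 0.06, 95% confidence interval -0.10 to 0.16; limma p = 0.585, adjusted p = 0.927, exact permutation p = 0.486), and -0.0048 without HDACI replicate 2.

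Ackr3, the atypical receptor that takes up and removes Cxcl12, is outside the rule for the set and stands in a list of atypical receptors and platelet chemokines. It averaged 9.55 with HDACI and 9.34 with vehicle, a log2 fold change of 0.22 (SE 0.09, limma adjusted p = 0.640). Without HDACI replicate 2 it was 0.13 (limma adjusted p = 0.780). Its groups overlapped, and it was the only one of the 5 measured genes of that list past p under 0.05 in limma (all genes 2.79% higher and 4.96% lower), and 0 of 5 passed p under 0.01. Another member, the platelet chemokine Ppbp, had a log2 fold change of -0.14, and the list's median was 0.01, against -0.01 over all genes.

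Cxcl13, the chemokine that draws B cells through Cxcr5 and is made by dorsal horn neurons after nerve injury in mice, varied widely within both groups. Its arrays read 10.28, 10.70, 9.59 and 9.81 on the HDACI arrays, against 10.48, 10.70, 8.86 and 9.17 on the vehicle arrays. High arrays were HDACI replicates 1 and 2 and vehicle replicates 1 and 2, while the other arrays of each group were lower, down to vehicle replicate 3. The highest array was 3.57 times the lowest, and the within-group SD of 0.74 was above that of 99.8% of genes. HDACI minus vehicle gave a log2 fold change of 0.29 (SE 0.42, 95% confidence interval -0.65 to 1.24; limma p = 0.506, adjusted p = 0.904, exact permutation p = 0.600), and 0.09 without HDACI replicate 2. Cxcr5 averaged 7.42 with HDACI and 7.47 with vehicle, a log2 fold change of -0.05.

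Ccl2, which attracts monocytes through Ccr2, was the most variable member. Its arrays read 7.81, 9.84, 7.997 and 8.08 on the HDACI arrays, against 8.93, 9.01, 7.57 and 8.02 on the vehicle arrays. HDACI replicate 2 and vehicle replicates 1 and 2 were high, and no other array passed 8.08, the highest being 4.82 times the lowest. Between the group means the log2 fold change was 0.05 (SE 0.47, 95% confidence interval -1.01 to 1.11; limma p = 0.920, adjusted p = 0.989, exact permutation p = 0.971). Without HDACI replicate 2 it was -0.42 (SE 0.33, limma adjusted p = 0.872), the opposite sign. With groups this spread, the direction depended on which arrays were kept. Ccr2 read 6.95, 7.18, 6.69 and 7.09 on the HDACI arrays, against 6.99, 7.02, 6.86 and 6.80 on the vehicle arrays. Here too the groups overlapped, with a log2 fold change of 0.06 (SE 0.10, 95% confidence interval -0.17 to 0.29; limma p = 0.579, adjusted p = 0.925, exact permutation p = 0.686), and -0.01 without HDACI replicate 2.

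The related ligand Ccl7, which shares Ccr2, read 6.61, 7.20, 6.74 and 6.64 on the HDACI arrays, against 6.50, 6.65, 6.68 and 6.75 on the vehicle arrays. Its mean of 6.72 over 8 arrays lay under the olfactory receptor 95th percentile (6.93). HDACI replicate 2 stood 0.45 above the next array, and the log2 fold change of 0.15 (SE 0.12, exact permutation p = 0.486) was 0.02 without it. Ccl12, another Ccr2 ligand of rodents, was near the low end and averaged 5.76 with HDACI and 5.77 with vehicle.

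**Figure D3:**
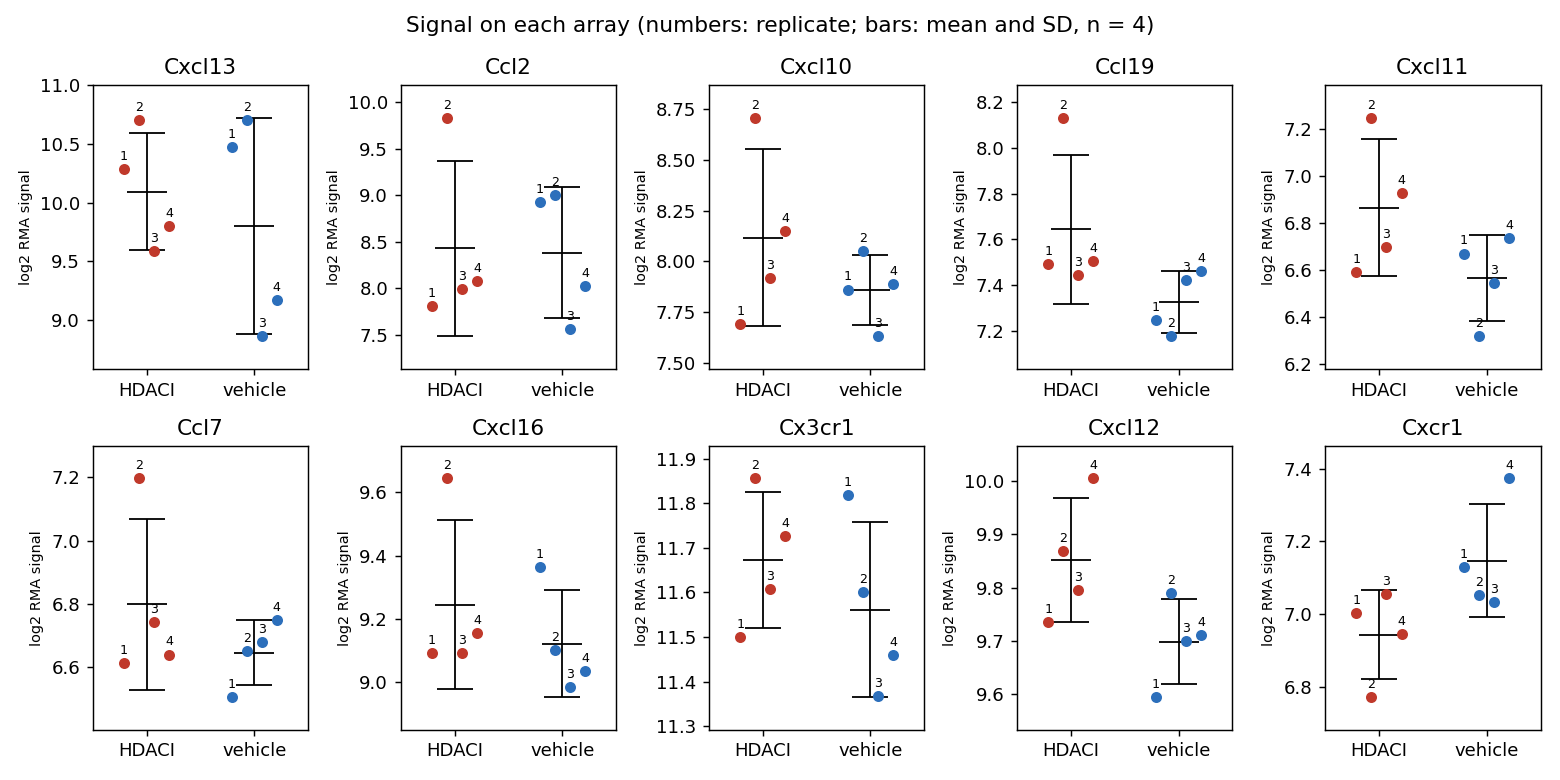
Log2 signal (vertical axis) on each array of the HDACI and vehicle groups for 10 genes, with each group's mean and SD. HDACI replicate 2 is the top array for Ccl2 (9.84), Cxcl10 (8.71), Ccl19 (8.13), Cxcl11 (7.25), Ccl7 (7.20) and Cxcl16 (9.64).

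Ccl19, one of the ligands that bring T cells and dendritic cells to lymphoid tissue through Ccr7, had the largest fold change. It read 7.49, 8.13, 7.44 and 7.50 on the HDACI arrays, against 7.25, 7.18, 7.42 and 7.46 on the vehicle arrays. The other HDACI arrays lay from 7.44 to 7.50, and HDACI replicate 2 was 0.63 above the next array. Its log2 fold change was 0.32 (SE 0.15, 95% confidence interval -0.01 to 0.65; limma p = 0.057, adjusted p = 0.646, exact permutation p = 0.0571), and 0.15 without HDACI replicate 2 (limma adjusted p = 0.780). Ccl21, the other Ccr7 ligand, read 6.95, 6.80, 6.77 and 6.74 on the HDACI arrays, against 6.84, 6.53, 6.97 and 6.92 on the vehicle arrays, with a log2 fold change of 0.0039 (SE 0.09, 95% confidence interval -0.21 to 0.22; limma p = 0.967, adjusted p = 0.994, exact permutation p = 1). Ccr7 itself had -0.06.

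Of the interferon-induced ligands of Cxcr3, Cxcl10 read 7.69, 8.71, 7.92 and 8.15 on the HDACI arrays, against 7.86, 8.05, 7.63 and 7.89 on the vehicle arrays. Cxcl11 read 6.59, 7.25, 6.70 and 6.93 on the HDACI arrays, against 6.67, 6.32, 6.55 and 6.74 on the vehicle arrays. Its mean of 6.72 over 8 arrays lay under the olfactory receptor 95th percentile (6.93). For Cxcl10 and Cxcl11 alike, HDACI replicate 2 was the highest array, 0.56 and 0.32 above the next. For Cxcl10 the log2 fold change was 0.26 (SE 0.19, 95% confidence interval -0.17 to 0.69; limma p = 0.205, adjusted p = 0.765, exact permutation p = 0.343), and 0.06 without that array. For Cxcl11 it was 0.30 (SE 0.14, 95% confidence interval -0.02 to 0.62; limma p = 0.0639, adjusted p = 0.652, exact permutation p = 0.143), and 0.17 without it. Among the HDACI arrays Cxcl9 was also highest on replicate 2, at 6.71 (the others from 6.17 to 6.38). Unlike them, it was higher still on vehicle replicate 2, at 6.88. Its log2 fold change was -0.14 (SE 0.16, exact permutation p = 0.514), and -0.24 without HDACI replicate 2. Their receptor Cxcr3 averaged 7.24 with HDACI and 7.40 with vehicle. Cxcl10 and Cxcl11 lie within the span of Art3 in the annotation, and Art3 averaged 8.18 over the arrays.

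Cxcr1, a receptor of neutrophils, was the only one of the 17 receptors of the set past p under 0.05. It read 7.003, 6.77, 7.06 and 6.94 on the HDACI arrays, against 7.13, 7.05, 7.03 and 7.37 on the vehicle arrays. HDACI replicates 1, 2 and 4 lay below every vehicle array, and HDACI replicate 3 lay inside the vehicle range. Mean levels were 6.94 ± 0.12 with HDACI and 7.15 ± 0.16 with vehicle (SD, n = 4 each). The log2 fold change was -0.20 (SE 0.09, 95% confidence interval -0.40 to -0.0087; limma p = 0.0423, adjusted p = 0.640, exact permutation p = 0.0857), and its p was above 0.05 without HDACI replicate 1, 2 or 4 or vehicle replicate 1 or 4, without moderation and with array weights. Of 6 neutrophil markers 3 were near the low end, and their mean ran from 6.18 to 6.25 with HDACI and from 6.15 to 6.40 with vehicle.

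Cxcl16, Cxcl14 and Cxcl17 were among the members with the 10 highest levels. Cxcl16, the membrane-bound ligand of Cxcr6, read 9.09, 9.64, 9.09 and 9.15 on the HDACI arrays, against 9.36, 9.10, 8.99 and 9.04 on the vehicle arrays. HDACI replicate 2 was its highest array, and the log2 fold change of 0.12 (SE 0.13) was -0.01 without it. Cxcl14, a chemokine with no settled receptor, read 9.81, 9.86, 9.70 and 9.69 on the HDACI arrays, against 9.79, 9.66, 9.68 and 9.74 on the vehicle arrays, a narrow range on both sides. Cxcl17, a chemokine of mucosal tissue, read 7.95, 8.07, 8.20 and 8.17 on the HDACI arrays, against 8.22, 7.75, 8.19 and 8.17 on the vehicle arrays, and vehicle replicate 2 was its low array. For Cxcl14 the log2 fold change was 0.04, and 0.01 without HDACI replicate 2, and for Cxcl17 it was 0.01.

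Ccl27, a ligand of Ccr10 known from skin, read 10.21, 9.91, 10.04 and 9.96 on the HDACI arrays, against 10.04, 10.06, 10.10 and 10.16 on the vehicle arrays. Its receptor Ccr10 read 8.01, 8.02, 7.96 and 7.94 on the HDACI arrays, against 8.05, 7.88, 7.98 and 8.09 on the vehicle arrays. Both were steady, with log2 fold changes of -0.06 (-0.02 without HDACI replicate 2) and -0.02. But Ccl27 overlaps Il11ra1 and Ccr10 overlaps Cntnap1 (mean 11.43) in the annotation. Of the 50 members, 17 overlap another gene there. Among them are Cxcr5 with Bcl9l (mean 9.40), Cxcr6 with Fyco1 (9.40), Cxcl16 with Zmynd15 (7.35) and Ccr1l1 with Ccr3. Whether the probes of such members read both genes was not tested.

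Ccl5, a T cell product that acts on several CC receptors, read 7.13, 7.05, 6.97 and 6.88 on the HDACI arrays, against 6.96, 6.92, 6.997 and 7.13 on the vehicle arrays. Its log2 fold change was 0.007 (SE 0.06, 95% confidence interval -0.14 to 0.15; limma p = 0.915, adjusted p = 0.989, exact permutation p = 0.914). Ccl3 and Ccl4, inflammatory ligands of macrophages and microglia, had log2 fold changes of 0.10 and 0.04. The Ccr4 ligands Ccl17 and Ccl22 had 0.05 and 0.03, and the Ccr3 ligands Ccl24 and Ccl26 had 0.11 and -0.05. Ccl20 had 0.07, and 1.5e-05 without HDACI replicate 2, Ccl28 -0.05, Cxcl1 0.02 and Xcl1 -0.01. For every gene named in this paragraph the groups overlapped.

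Ccl9, a ligand of Ccr1 in mice, read 7.89, 7.66, 7.59 and 7.85 on the HDACI arrays, against 8.40, 8.12, 7.33 and 7.73 on the vehicle arrays. The vehicle arrays spread more widely than the HDACI arrays, and the log2 fold change was -0.14 (SE 0.20, 95% confidence interval -0.59 to 0.30; limma p = 0.482, adjusted p = 0.894, exact permutation p = 0.571). Ccl6 and its receptor Ccr1, both near the low end, had log2 fold changes of 0.20 (SE 0.10, exact permutation p = 0.200) and 0.17 (SE 0.12, exact permutation p = 0.314). The receptors Ccr6, Ccr4, Ccr1l1, Cxcr6 and Xcr1 had log2 fold changes between 0.02 and 0.10.

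Members varied more from array to array than the median gene. The median within-group SD was 0.14 over the 50 members, from 0.07 to 0.83, against 0.09 over all genes. By SD, 10 of 50 members lay among the top 5% of genes, and 2, Ccl2 and Cxcl13, among the top 1%. The other 8 were Ccl9, Cxcl10, Cxcl9, Ccl19, Cxcl11, Cxcl16, Ccl26 and Ccr1. The median half-width of the confidence interval was 0.19 for members and 0.13 for all genes.

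**Figure D4:**
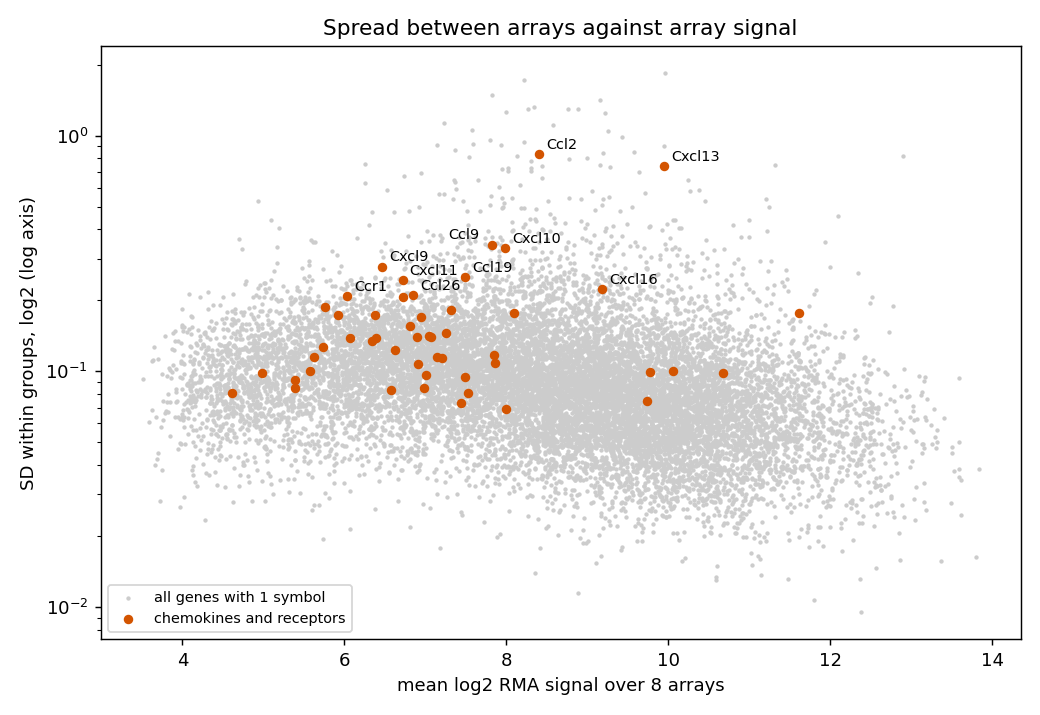
Within-group SD of the log2 signal (vertical axis, log scale) against mean log2 signal (horizontal axis), with members over all genes in grey. Ccl2 (0.83) and Cxcl13 (0.74) have the highest SDs of the family.

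HDACI replicate 2 was the highest of the 8 arrays for 15 of 50 members (30.0%), against 16.1% of all genes, and its members averaged 0.13 above their 8-array means. Vehicle replicate 2 was the lowest array for 21 of 50 members, against 15.4% of all genes. Cell type lists varied over these arrays too, but not all in the direction of the members. On vehicle replicate 2 the T cell (5.98), B cell (6.61), neutrophil (6.15) and red blood cell (7.51) lists were lowest. The leptomeningeal (9.34) and Schwann cell lists were high on it. The mean of 2 Schwann cell markers, Prx and Pmp22, was 10.03, 11.84, 11.08 and 9.81 on the HDACI arrays, against 11.51, 11.69, 9.66 and 10.27 on the vehicle arrays. It was high where Ccl2 was high, on HDACI replicate 2 and vehicle replicates 1 and 2, but also on HDACI replicate 3, where Ccl2 was low.

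HDACI replicate 2 also had the highest mean over 2 red blood cell genes, Hbb and Alas2 (9.54, other HDACI arrays 7.69 to 8.21, vehicle arrays 7.51 to 8.77), over 6 endothelial genes (9.23, other HDACI arrays 8.93 to 9.06, vehicle arrays 8.95 to 9.04) and over 5 macrophage genes (7.53, other HDACI arrays 7.14 to 7.47, vehicle arrays 7.01 to 7.44). The part of these cells in the chemokine levels was not tested. The 8 microglia markers averaged 9.60 to 9.86 with HDACI and 9.50 to 9.87 with vehicle. T cell markers (7 genes, 4 near the low end) averaged 6.08 to 6.16 with HDACI and 5.98 to 6.21 with vehicle.

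**Figure D5:**
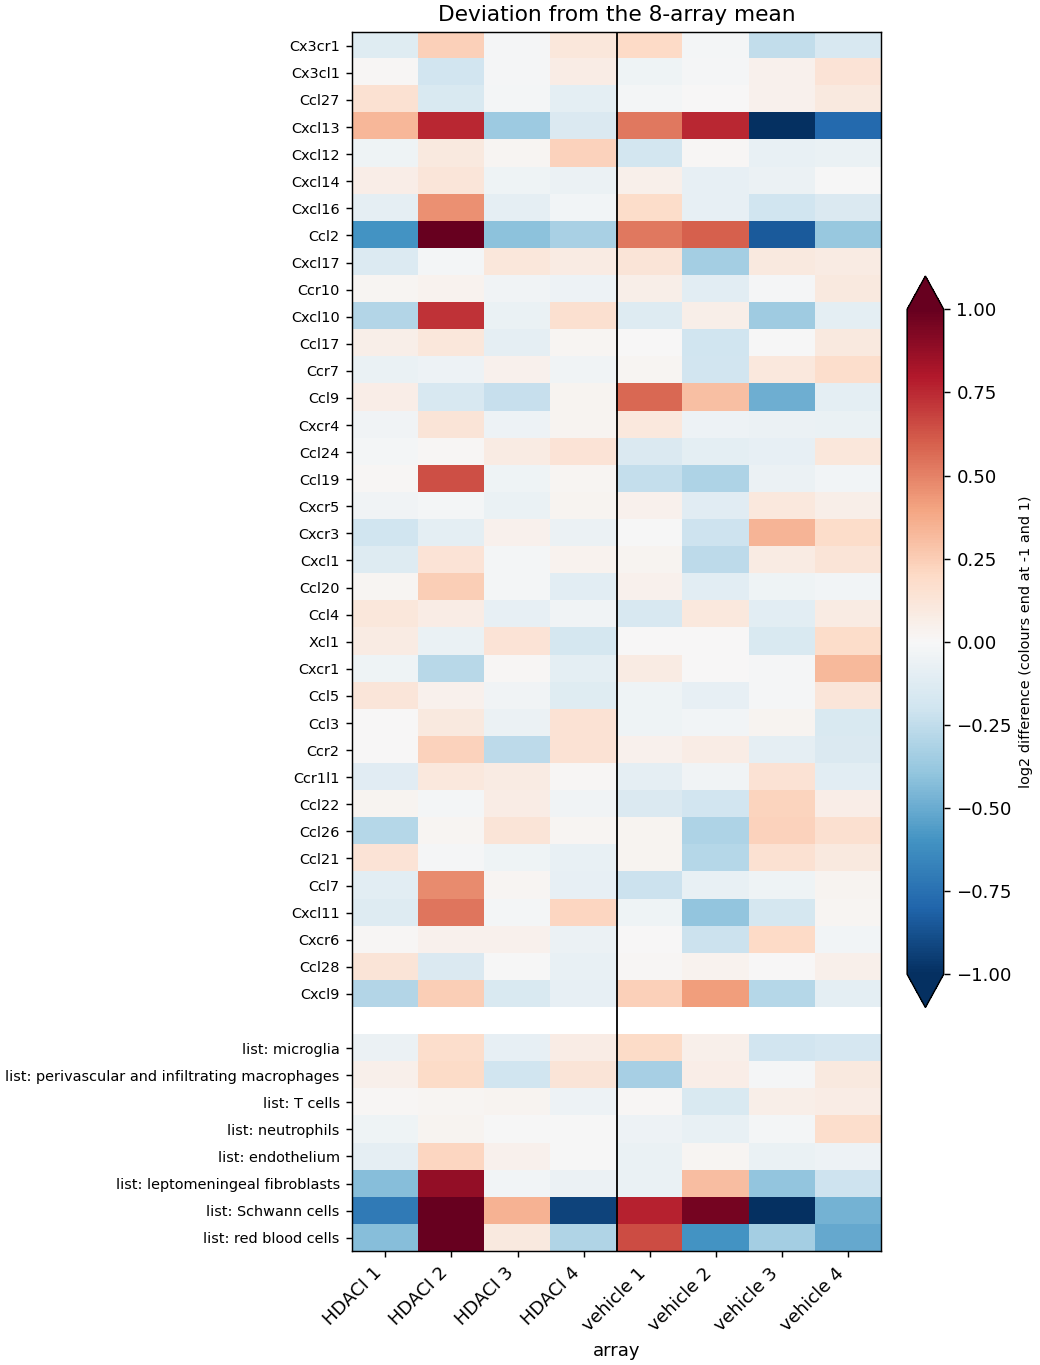
Difference of each array from the gene's 8-array mean (log2, colour) for the 36 members above the low end and for cell type marker lists, with HDACI arrays left of the line and vehicle arrays right of it. HDACI replicate 2 is high for Ccl2, Cxcl10, Ccl19 and Cxcl11 and for the Schwann cell, red blood cell and leptomeningeal lists.

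Besides Ackr3, no gene of the pathway lists passed p under 0.05 in limma, which 7.75% of all genes did. Of 33 measured genes of receptor signalling (G proteins, arrestins, kinases and small GTPases), 0 passed p under 0.05 in either direction, the median was 0.03 with 22 above 0, and the largest were Fgr, a kinase of myeloid cells, at 0.18 (0.14 without HDACI replicate 2) and Rac2, a GTPase of blood cells, at 0.17 (0.10 without it). Of 9 genes that cut, hold or present chemokines, 0 passed, with a median of 0.01, the protease Mmp2 at 0.13 (0.02 without that array) and the heparan sulfate carrier Sdc1 at -0.12 (-0.15 without it, limma adjusted p = 0.780). Of 7 measured transcription factors and regulators that induce chemokines, 0 passed, with a median of 0.00, the interferon-induced factor Irf1 at 0.14 (0.03 without that array) and Nfkb1, a subunit of NF-κB, at 0.05 (0.02 without it). The median over all genes was -0.01.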

How the data were processed

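RNA from 8 dorsal ipsilateral spinal cords (4 HDACI, 4 vehicle) was hybridised to Affymetrix Rat Gene 1.0 ST arrays. The deposited values are log2 signals, which the authors made with RMA, a method that corrects background, normalizes quantiles between arrays and summarises each probe set. RMA pulls low signals together, so changes near the low end are understated. Arrays carry no read depth, and their number limits the precision. Groups came from the sample labels.

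The platform table gave 15310 of 29214 probe sets a single symbol, 323 more than 1 symbol, and 13581 are unnamed here. Probe sets of a gene were averaged (14506 genes), and HDACI was compared with vehicle on all genes with limma (version 3.58.1, functions lmFit and eBayes, under R 4.3.3), with two-sided p-values adjusted by Benjamini-Hochberg and no filter. Single genes also had a two-sided exact permutation test over 70 assignments. The fit was tested on simulated data, in which 94.0% of 67 genes changed by 0.5 (log2) among 14506 were called at p under 0.01. Those genes were drawn from all genes, with noise independent from gene to gene. Members had larger within-group SDs (median 0.14, all genes 0.09), so that share does not apply to them.

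The members and lists were chosen with earlier results of these data known. Every array value is given for members past p under 0.05, the 5 largest fold changes, the 10 highest levels, members often studied in nerve injury, and both sides of the low-end line. Ccl7 and Ccl9 were added after their values were seen. Of genes outside the set, those past p under 0.01 and the 2 largest changes in each list were named. Promoter sequences and gene overlaps came from RefSeq (GRCr8). Alternatives covered moderation, filters, normalization, array weights, probe set handling, the replicate block and leaving out each array. The ganglion arrays were not analysed here.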

Additional observations from a re-analysis of the deposited data

Results flagged for a closer look

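Within-group outliers were sought in the 100 groups of 4 arrays that the 50 genes give, and 5 groups held an array far from the others by Dixon's criterion at its 95% critical value. Chance alone flags about 1 in 20 independent groups. These groups share the same 8 arrays and are not independent, so the count cannot be judged against that rate. On HDACI replicate 2, Ccl2 was at 9.84 (the other HDACI arrays from 7.81 to 8.08), Ccl19 at 8.13 (the others from 7.44 to 7.50) and Cxcl16 at 9.64 (the others from 9.09 to 9.15). Among vehicle arrays, Cxcl17 was at 7.75 on replicate 2 (the others from 8.17 to 8.22), and Cxcr4 was at 7.63 on replicate 1 (the others from 7.46 to 7.48).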

How the results depend on the processing

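No member reached an adjusted p under 0.05 in limma under any of the 19 settings run (lowest adjusted p 0.462). Among 897 alternative values, 1 had p under 0.01, Ccl6 without HDACI replicate 3 (log2 fold change 0.30, adjusted p = 0.722). Of the members, 26 kept 1 sign and 24 changed sign in at least 1 setting. Members higher at p under 0.05 numbered 1, but 0 without moderation, 3 after further quantile normalization and 2 with array weights, and 0 to 3 leaving out single arrays. With each array centred on its median the count stayed at 1, but the gene was Ccl19 and no longer Cxcl12. Members lower numbered 1 (Cxcr1), but 0 without moderation and 0 with array weights, and 0 to 5 leaving out arrays (5 without vehicle replicate 2). Over genes at or above the median level they numbered 0. That filter left 11 members and removed Cxcr1 (mean 7.05) before the fit, so its 0 cannot speak to that call. Members higher at p under 0.01 numbered 0 to 1 without single arrays.

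The sample labels do not say whether replicate numbers pair the samples. Deviations of same-numbered arrays correlated from -0.27 to 0.36, and those of other pairs from -0.44 to 0.34. These ranges overlap, so they cannot decide it. With the replicate block, 3 members were higher at p under 0.05, and 66 genes of all were lower at p under 0.01, against 124 in the unblocked fit. The block brought no member past an adjusted p under 0.05.

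Over all genes, calls at p under 0.01 without single arrays ranged from 46 (without HDACI replicate 4) to 134 (without HDACI replicate 1) higher, 88 with all arrays, and from 67 (without HDACI replicate 4) to 140 lower, and 193 were lower without moderation. With each probe set tested on its own, 199 were higher at p under 0.01, and 841 higher and 1117 lower at p under 0.05. Calls at an adjusted p under 0.05 were 0 to 2 without single arrays (2 without HDACI replicate 3 or vehicle replicate 2) and 1 by probe set. Members under the low end numbered 14, but 2 at the 10th percentile, 39 at the median and 23 at the olfactory receptor level. The median within-group SD of 0.14 and the median interval half-width of 0.19 set what could be seen in members. The causes of these differences were not tested.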
